A study of Sus scrofa with 12 samples.

Results

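The genes described here encode the axoneme of the sperm tail and the structures around it: dynein arms, the nexin-dynein regulatory complex, radial spokes, the central pair with its projections, tektins and outer dense fibres. They were taken from a list of 60 gene symbols, of which 58 were found among the 20678 genes with an mRNA in the RefSeq annotation of the pig genome Sscrofa11.1. CFAP57 and TEKT4 were absent from it. The measurement was m6A methylation of mRNA in boar sperm by MeRIP-seq, in which an antibody enriches m6A-bearing RNA pieces of about 100 nucleotides (IP) for comparison with the RNA before enrichment (input). A peak is a stretch of mRNA with more IP than input reads, and its deposited score is 10 times -log10 of the peak caller's p.

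Semen came from 3 mature Duroc boars, and each ejaculate was divided into both groups. Fresh sperm (Fs) went straight to RNA extraction per the labels, and per the study's methods they were first put into liquid nitrogen, with no cooling steps and no glycerol. Frozen-thawed sperm (Fts) had been cooled to 17 °C, taken up in a lactose and egg yolk extender, cooled to 4 °C, diluted again in the same extender with 6% glycerol, and frozen in straws. Each group had 3 IP samples, called Fs1, Fs2, Fs3 and Fts1, Fts2, Fts3, each with its own input library. The labels do not say which boar stands behind a number, so the p-values below measure the spread between these samples. Tests over all 6 samples count Fs and Fts samples of the same 3 boars as independent, which they are not. With 3 boars as units, no sign-flip p could lie under 0.25. Somatic cells were lysed with detergent before RNA extraction, per the study's methods.

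In the axoneme, dynein arms on the outer doublet microtubules walk along the neighbouring doublet and so bend the tail. The nexin-dynein regulatory complex links the doublets, and radial spokes carry signals from the central pair to the arms. Outer dense fibres stiffen the mammalian tail, and tektins are filaments inside the doublets. Mature sperm are held to be almost silent in transcription and translation, so most of their mRNA is carried over from spermatogenesis. m6A is the most common internal modification of mRNA and is written mainly within short motifs that end in AC followed by A, C or T.

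The 6 peak lists held 8015 to 11982 peaks, of which 6818 to 10681 lay on exons of mRNAs on the same strand. Read numbers are not part of these lists, so the depth behind a single peak is unknown here. Per the study's supplement, every Fs IP library had more mapped reads than every Fts IP library. A larger share of reads mapped in Fs than in Fts, in IP and input libraries alike. The part of this in the differences between Fs and Fts below was not tested. Between 39.7 and 57.8% of the peaks on axoneme and flagellum genes had a score for which p is above 0.05, and the same held for 44.7 to 55.8% of the peaks on all genes. Many single peaks are therefore weak, and peaks found again in several samples carry more weight. No peak on these genes was shared with another gene. A peak needs enough mRNA to be seen, and fewer cells of a type and less RNA per cell cannot be told apart in such samples.

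Defining sperm markers gave few peaks. Of 14 annotated sperm markers, PRM1, TNP1, AKAP4, ODF1, SMCP, GAPDHS, HSPA1L and TSSK6 had no peak in any sample, and the whole list summed to 0 peaks in each Fs sample and to 1, 5 and 5 in Fts1, Fts2 and Fts3. The 6 with a peak were PRM2, PRM3, TNP2, CRISP2, LDHC and SPATA3, some with very high scores. PRM3 scored 3100 in Fts1 and Fts3, PRM2 3100 in Fts2 and TNP2 2075 in Fts3. CRISP2 scored up to 247 in Fts2 and 1218 in Fts3, while LDHC and SPATA3 stayed at 28.6 or below. A missing peak does not show that the mRNA was missing. The 8 markers of fibroblasts and matrix summed to 6 to 8 peaks in Fs and to 31 to 38 in Fts, of which fibronectin (FN1) alone gave 1, 2 and 0 in Fs against 32, 31 and 27 in Fts. Without FN1 the other 7 summed to 5, 6 and 8 peaks in Fs1, Fs2 and Fs3 and to 6, 2 and 4 in Fts1, Fts2 and Fts3. Of these, COL1A2 had more peaks in every Fts sample (0, 0 and 0 against 3, 1 and 1), VIM had more in every Fs sample (1, 1 and 1 against 0, 0 and 0), and LUM had none. The 8 leukocyte markers gave 2 to 3 peaks in Fs and 1 to 3 in Fts, with CD14, CSF1R and LYZ at 0. The 5 annotated epithelial markers gave 0 to 2 and 4 to 5 peaks, with EPCAM and KRT5 at 0, and the 6 Sertoli and Leydig cell markers gave 0 to 3 and 1 to 2, with AMH at 0. KRT8 (0, 0 and 0 against 3, 4 and 2) and SOX9 (0, 0 and 0 against 1, 1 and 1) had more peaks in every Fts sample. No gene of these 2 lists had more in every Fs sample. Over all genes with a peak, 8.98% had more in every Fts sample. The part of these cell types in the differences between Fs and Fts below was not tested.

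Axoneme and flagellum genes carried peaks more often than the average gene. Of the 58 genes, 51 had a peak in at least 1 sample, against 11705 of 20678 genes in all. DNAI1, DNALI1, CFAP47, CFAP52, RSPH9, ODF1 and TEKT1 had none. Within a sample, 48.3 to 70.7% of these genes and 25.4 to 31.7% of all genes had a peak, and the difference averaged 29.5 ± 7.09 percentage points (SD, n = 6; higher in 6 of 6 samples, exact two-sided sign-flip test p = 0.031). These mRNAs are long, with a median of 5027 nt against 2697 nt, and have a median of 20.5 exons against 7. Per length they still held more peaks, 13.5 to 19.4 per 100 kb of mRNA against 9.42 to 14.8, a mean difference of 4.58 ± 1.41 (SD, n = 6; 6 of 6 samples, exact sign-flip p = 0.031). With scores of at least 20 (p up to 0.01) that difference was 2.10 per 100 kb, and with scores of at least 50 (p up to 1e-05) it was 1.58. Many peaks end at exon ends, so 1 stretch over several exons can count as several peaks. The part of this in the difference was not tested, as it was not computed with joined peaks. These 2 comparisons and the one of coding shares below were chosen after the data were seen. Over the 3 of them the Benjamini-Hochberg adjusted p of each exact test stayed at 0.031, the smallest value that 6 samples can give, and the genes were not matched for mRNA amount. Since the 6 samples came from 3 boars, these p-values show agreement between samples and overstate the number of independent units.

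The 3 Fts samples held more peaks on these genes than the 3 Fs samples. Fs1, Fs2 and Fs3 had 54, 64 and 63 peaks, and Fts1, Fts2 and Fts3 had 76, 78 and 74, so the groups did not overlap. The means were 60.3 ± 5.51 and 76.0 ± 2.00 (SD, n = 3 each), a difference of 15.7 with an exact sign-flip p of 0.25, which is the smallest that 3 pairs allow. In an unpaired exact permutation test p was 0.1, again the smallest possible. Genes with a peak numbered 28, 33 and 31 in Fs and 33, 41 and 38 in Fts, and here the groups met at 33.

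**Figure D1:**
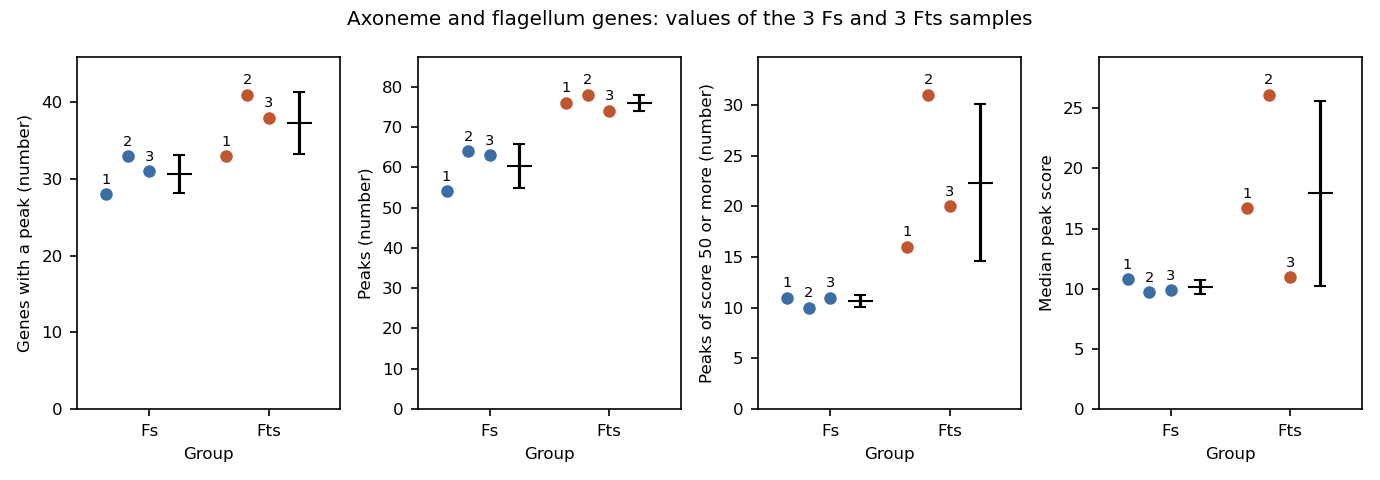
The 4 panels plot, for the axoneme and flagellum genes in each Fs (blue) and Fts (orange) sample, the genes with a peak, the peaks, the peaks of score 50 or more and the median peak score; digits are sample numbers, and the bar shows the mean with SD of 3 samples. Fts lies above Fs in every panel, with contact at 33 genes in the first, and the Fts samples spread most in the 2 score panels, where Fts2 is highest.

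Relative to the length of the peak lists the groups overlapped. The share of all peaks on genes that fell on axoneme and flagellum genes was 0.792, 0.726 and 0.722% in Fs and 0.896, 0.752 and 0.693% in Fts (difference 0.0337 percentage points, exact sign-flip p = 0.75). When each sample was cut to its 8015 highest peaks, these genes held 54, 46 and 51 peaks in Fs and 59, 54 and 46 in Fts, a difference of 2.67 (exact p = 0.75). Many of the deposited peaks end at exon ends, so that 1 methylated stretch can be listed as several peaks. When peaks that meet across an intron were joined, the counts were 52, 64 and 62 in Fs and 66, 65 and 68 in Fts, and the difference was 7.0 (exact p = 0.25).

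Strong peaks were more frequent in Fts. Fs1, Fs2 and Fs3 had 11, 10 and 11 peaks of score 50 or more, Fts1, Fts2 and Fts3 had 16, 31 and 20, and the lowest Fts sample lay above the highest Fs sample. The mean difference was 11.7 (exact sign-flip p = 0.25), and 7.0 without pair 2, since Fts2 held the most. Such peaks made up 15.6 to 20.4% of the peaks on these genes in Fs and 21.1 to 39.7% in Fts, beside 15.3 to 18.2% and 20.7 to 27.6% over all genes. The median score was 10.8, 9.71 and 9.86 in Fs and 16.7, 26.1 and 11.0 in Fts, a difference of 7.81 (exact sign-flip p = 0.25) that was 3.50 without pair 2. Over all genes it was 11.85, 11.41 and 10.67 in Fs and 13.13, 16.17 and 13.41 in Fts, and the groups lay apart there too. In Fts3 the median of these genes lay below that of all genes. Peaks per gene with a peak were 1.93, 1.94 and 2.03 in Fs against 2.30, 1.902 and 1.95 in Fts and overlapped.

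At single genes, 6 of the 51 genes with a peak had more peaks in every Fts than in every Fs sample: IQCG, CCDC40, CFAP70, CFAP74, SPAG6 and RSPH3. Over all genes with a peak this was so for 8.98%. DNAH17 and CFAP69 had more in every Fs sample, 2 of 51, beside 5.36% over all genes. Both counts lie near the background, so they say nothing particular about these genes as a group. Of 16 members with an mRNA of at least 10000 nt and a peak, 0 were higher in Fts and 1 in Fs, beside 9.61 and 6.41% of all genes that long. A call by the highest score of a gene, chosen after the data were seen, gave 12 genes higher in every Fts sample (13.2% of all genes) and 3 higher in every Fs sample (10.7%). CFAP46, DNAH5 and SPAG17 were those 3, and AK7, CFAP44, CFAP61, CFAP65, DNAI2 and RSPH1 joined the 6 genes already named in the other direction.

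**Figure D2:**
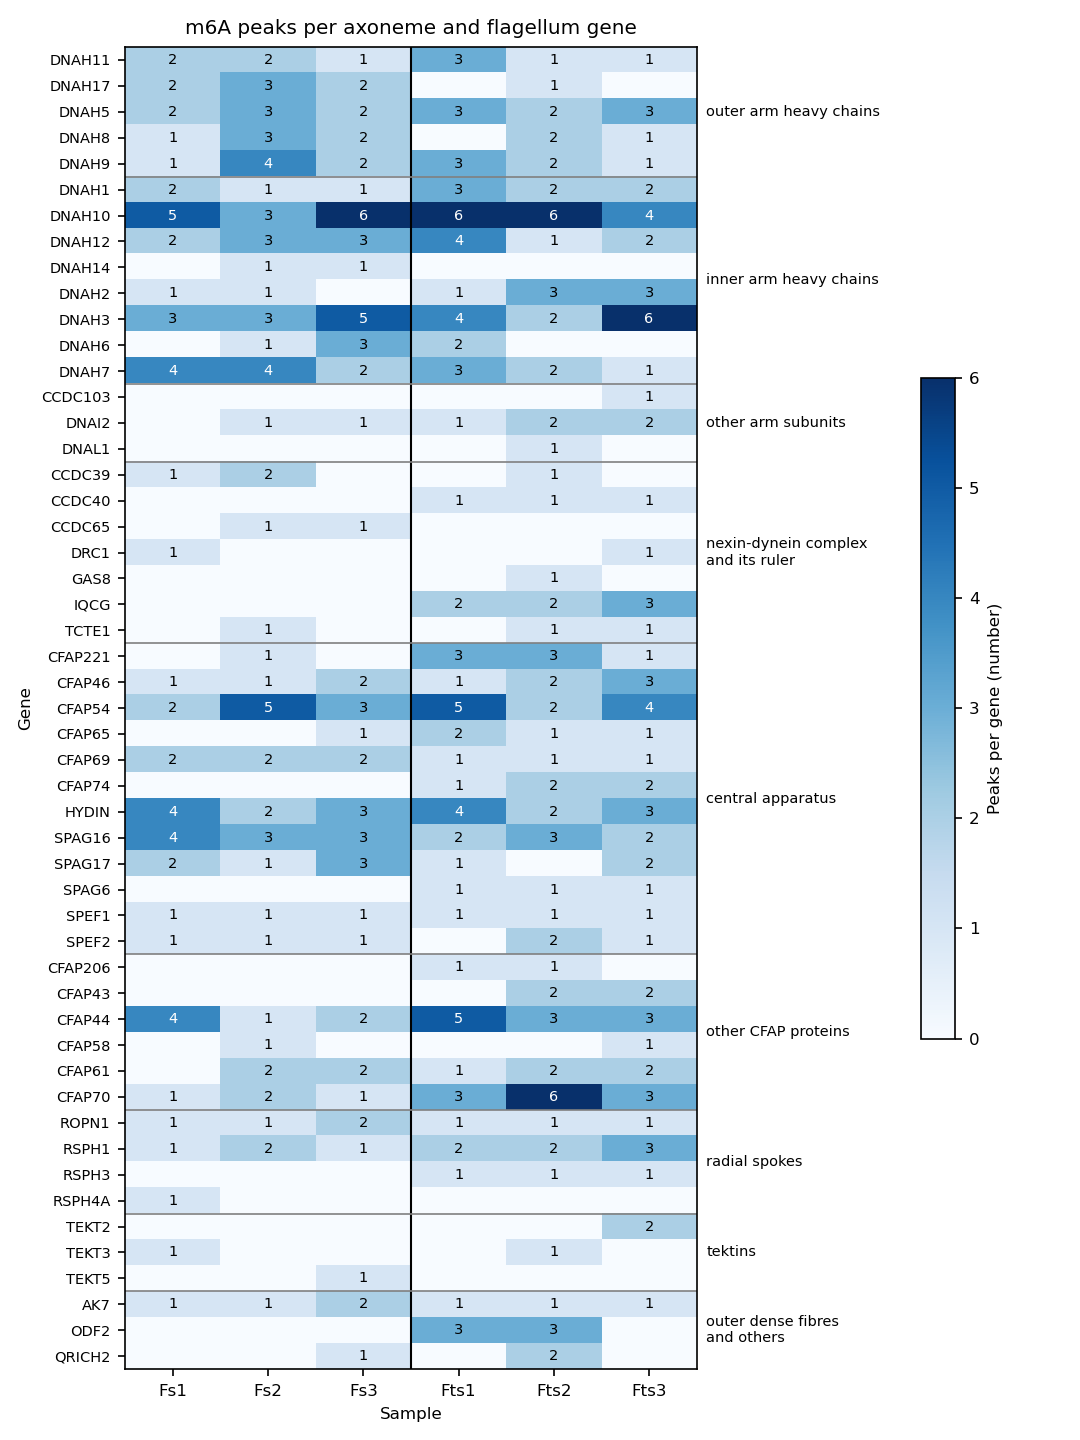
The number of peaks is given for each of the 51 genes with a peak (rows, by role) in the 3 Fs and 3 Fts samples (columns); empty cells hold 0 peaks and darker blue marks more. DNAH10 and DNAH3 carry the most peaks, DNAH17 is filled mainly on the Fs side, and IQCG, CCDC40, CFAP74, SPAG6 and RSPH3 are filled only on the Fts side.

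Peaks on all genes averaged 8120 in Fs and 9844 in Fts, with overlapping samples. The counts by role group below were not adjusted for this difference. Outer arm heavy chains are the motor subunits of the outer row of arms. All 5 annotated ones (DNAH5, DNAH8, DNAH9, DNAH11 and DNAH17) had peaks, in all 8, 15 and 9 in Fs and 9, 8 and 6 in Fts. It was the only one of the 9 role groups whose Fts mean was below its Fs mean, with 7.67 ± 1.53 against 10.7 ± 3.79 (SD, n = 3), and the samples overlapped (exact sign-flip p = 0.5).

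DNAH17, an outer arm heavy chain of the sperm tail, held 2, 3 and 2 peaks in Fs1, Fs2 and Fs3 and 0, 1 and 0 in Fts1, Fts2 and Fts3. Its exon 48 of 83 carried the highest scores of all the axoneme and flagellum genes, 2844 in Fs2 and 1709 in Fs3, with no peak there in Fs1 or in any Fts sample. In Fs2 that score ranked 12 among all peaks on genes. Exon 18 was covered in every Fs sample, with scores of 14.4, 6.97 and 28.8, and in no Fts sample. The only Fts peak, in Fts2, lay on exon 28 and scored 252. The exons are printed in Sscrofa11.1 from 5′ to 3′, and capitals mark the m6A motif RRACH, that is AAACN or AGACN or GAACN or GGACN with any base but G at the N, on the transcript strand. In the second, the 85 nt are part of the exon. Both are regions of DNAH17 with a peak in more than 1 Fs sample. Single Fs peaks also lay on exon 68 in Fs2 (18.75) and on exon 73 in Fs1 (4.46).
DNAH17 exon 48, chr12:3543035-3543242, + strand: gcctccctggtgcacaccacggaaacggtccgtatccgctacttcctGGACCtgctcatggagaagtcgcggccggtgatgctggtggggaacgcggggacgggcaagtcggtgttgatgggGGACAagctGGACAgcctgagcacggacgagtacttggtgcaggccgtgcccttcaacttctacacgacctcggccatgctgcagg
DNAH17 exon 18, chr12:3512460-3512544, + strand: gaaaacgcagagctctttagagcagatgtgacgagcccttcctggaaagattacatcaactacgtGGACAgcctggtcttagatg

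DNAH5, an outer arm heavy chain best known from airway cilia, had 2, 3 and 2 peaks in Fs and 3, 2 and 3 in Fts, largely on different exons. Exon 28 of 81 scored 195, 157 and 134 in Fs and 29.5 in Fts1 alone. Exon 36 had a peak in the 3 Fs samples (33.7, 12.6 and 7.65) and in no Fts sample, while exon 53 had one in the 3 Fts samples (12.5, 3.06 and 9.30) and in no Fs sample. The highest score of the gene thus ranged from 134 to 195 in Fs, against 7.07 to 29.5 in Fts, and the groups did not overlap.

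DNAH9, an outer arm heavy chain known from motile cilia, had 1 of the 8 regions with a peak in all 6 samples. That peak, on exon 40 of 70, scored 3.45, 4.69 and 108 in Fs and 9.37, 19.2 and 58.7 in Fts, so the groups overlapped. DNAH8 and DNAH11 had 0 to 3 peaks per sample.

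Inner arm heavy chains shape the bend of the tail. The 8 genes of this group held 17, 17 and 21 peaks in Fs and 23, 16 and 18 in Fts, with means of 18.3 ± 2.31 and 19.0 ± 3.61 (SD, n = 3; exact sign-flip p = 1). DNAH10 had the most peaks of all members, 5, 3 and 6 in Fs and 6, 6 and 4 in Fts. The numbers overlapped, while only exons 5 and 14 had a peak in both groups, on exon 5 with scores of 267 in Fs3 and 3.38, 83.2 and 75.2 in Fts. Exon 68 of 79 scored 7.80, 20.4 and 4.81 in Fs and exon 12 scored 4.20, 14.6 and 7.90, and neither had a peak in Fts. Exons 62 and 61 of 79, within the coding sequence, had peaks of 68.5 in Fs1, 187 in Fs2 and 85.9 in Fs3 and none in Fts. Exon 3 scored 317 in Fts1 and 670 in Fts2 and exon 46 scored 186 in Fts1 and 130 in Fts3, all without a peak in Fs. Exons 12 and 68 are printed as those covered in every Fs and no Fts sample, and exon 3 as that of the highest Fts score.
DNAH10 exon 12, chr14:29214084-29214254, - strand: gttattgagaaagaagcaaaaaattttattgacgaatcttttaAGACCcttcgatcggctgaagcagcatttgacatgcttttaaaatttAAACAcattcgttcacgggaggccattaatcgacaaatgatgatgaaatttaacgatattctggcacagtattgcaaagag
DNAH10 exon 68, chr14:29107338-29107492, - strand: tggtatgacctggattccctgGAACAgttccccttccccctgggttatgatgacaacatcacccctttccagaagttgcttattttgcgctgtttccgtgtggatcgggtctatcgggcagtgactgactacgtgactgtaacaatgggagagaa
DNAH10 exon 3, chr14:29243644-29243744, - strand: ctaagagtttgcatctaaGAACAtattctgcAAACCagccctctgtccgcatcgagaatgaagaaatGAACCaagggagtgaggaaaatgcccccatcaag

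**Figure D3:**
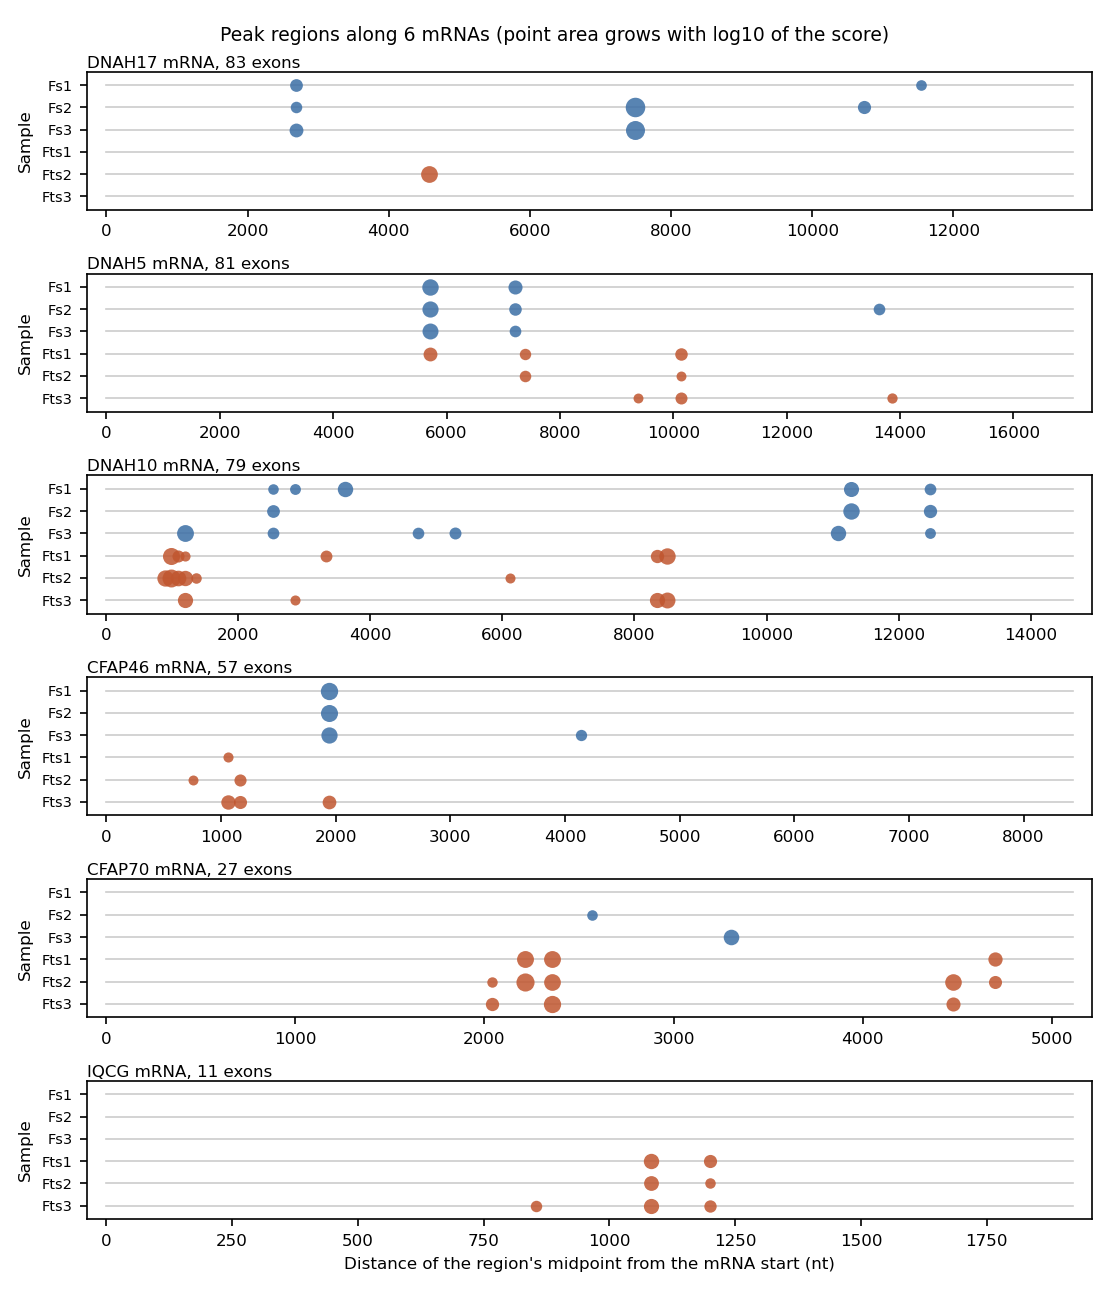
Each panel runs along 1 mRNA, the longest coding transcript, in nt from its start, with a line per sample; points are peak regions at their midpoint (blue Fs, orange Fts), and larger points have higher scores. Exons of DNAH17, DNAH5 and DNAH10 that carry points in Fs mostly carry none in Fts, and CFAP70 and IQCG carry most or all of their points in Fts. The exon of CFAP46 with the largest Fs points also carries a smaller point in Fts3.

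DNAH1, an inner arm heavy chain whose loss is a known cause of short, malformed sperm tails, had a peak on exon 47 of 78 in all 6 samples. Its scores were 303, 33.4 and 191 in Fs and 52.5, 69.4 and 164 in Fts, and the groups overlapped. DNAH3 carried 3, 3 and 5 peaks in Fs and 4, 2 and 6 in Fts, and its exon 18 of 66 had a peak in Fts only (44.4, 23.3 and 17.0). DNAH7 held 4, 4 and 2 peaks in Fs and 3, 2 and 1 in Fts. Its exon 43 of 67 scored 7.61, 294 and 124 in Fs and 72.5 in Fts3 alone, so the groups overlapped. Exon 63 scored 51.1, 16.9 and 18.6 in Fs. In Fts it scored 7.64 in Fts1 and 3.04 in Fts2, with no peak in Fts3, and the groups did not overlap. DNAH12 held 1 to 4 peaks per sample, DNAH2 and DNAH6 0 to 3, and DNAH14 0 to 1. The DNAH1 exon is shown as a site common to both groups.
DNAH1 exon 47, chr13:34525363-34525541, + strand: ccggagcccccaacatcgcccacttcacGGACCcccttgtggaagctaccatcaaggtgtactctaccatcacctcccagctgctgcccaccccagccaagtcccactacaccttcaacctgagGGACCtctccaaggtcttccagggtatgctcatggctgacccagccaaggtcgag

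Other arm subunits gave few peaks. DNAI2, an intermediate chain that anchors the outer arm, had 0, 1 and 1 peaks in Fs and 1, 2 and 2 in Fts. On its exon 12 of 13 the score was 0 (no peak), 16.8 and 24.5 in Fs and 133, 125 and 223 in Fts, so the groups did not overlap. DNAL1 and CCDC103 had 1 peak each, in Fts2 and in Fts3.

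In the nexin-dynein regulatory complex and its ruler proteins, the 7 genes held 2, 4 and 1 peaks in Fs and 3, 6 and 6 in Fts (exact sign-flip p = 0.25, groups overlapping). IQCG, a subunit of the complex that sperm tails need, had 0 peaks in each Fs sample and 2, 2 and 3 in Fts. Exon 7 of 11 scored 84.3, 56.6 and 74.4 in Fts, and the next exon, 8, scored 18.7, 4.05 and 11.4. They are neighbours in the spliced mRNA. Exon 7 is shown since it holds 5 RRACH matches, the most of the exons printed here.
IQCG exon 7, chr13:134559616-134559777, - strand: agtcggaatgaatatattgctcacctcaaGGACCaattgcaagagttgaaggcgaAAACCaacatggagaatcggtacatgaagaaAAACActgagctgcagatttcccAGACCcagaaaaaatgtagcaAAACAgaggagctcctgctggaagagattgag

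CCDC40, which with CCDC39 forms the ruler that spaces the arms and spokes, had 1 peak in each Fts sample and none in Fs. All 3 lay on exon 3 of 20, ahead of the start codon of the longest coding transcript, at chr12:2380522-2380955, with scores of 12.2, 15.1 and 68.3. CCDC39, CCDC65, DRC1, GAS8 and TCTE1 had 0 to 2 peaks per sample, and the highest of these, 233 for GAS8, was found in Fts2 only.

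The central apparatus had peaks on 12 of its 13 annotated genes. It held 17, 17 and 19 peaks in Fs and 22, 20 and 22 in Fts, and the groups did not overlap (17.7 ± 1.15 and 21.3 ± 1.15, SD, n = 3; exact sign-flip p = 0.25). Peaks on all genes also had a higher mean in Fts, 9844 against 8120, so these counts say nothing particular about the central apparatus. HYDIN, which builds a projection of the central pair, had 4, 2 and 3 peaks in both groups. Exon 43 of 90 was covered in all 6 samples, with scores of 18.4, 19.7 and 7.14 in Fs and 19.2, 36.6 and 30.9 in Fts. This exon holds no RRACH.
HYDIN exon 43, chr6:13983017-13983154, - strand: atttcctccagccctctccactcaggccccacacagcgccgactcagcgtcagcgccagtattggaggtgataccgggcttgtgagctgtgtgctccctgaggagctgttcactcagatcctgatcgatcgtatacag

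CFAP54, a large central pair protein, had 2, 5 and 3 peaks in Fs and 5, 2 and 4 in Fts. A peak on exon 49 of 68 was found in all 6 samples (34.6, 52.6 and 25.1 against 7.38, 52.4 and 8.68). Exon 59 had peaks in Fts only (12.8, 65.4 and 80.9). On exon 15, which held the highest score of the gene, scores were 119, 129 and 63.7 in Fs. In Fts they were 48.9 in Fts1 and 6.67 in Fts3, with no peak in Fts2, so the groups did not overlap. CFAP74 had 0 peaks in Fs and 1, 2 and 2 in Fts, with exon 5 of 40 at 30.0, 98.2 and 97.9. CFAP221 had a region on exon 22 of 25 in Fts only (15.9, 59.0 and 3.45), although Fs2 had 1 peak elsewhere in the gene.

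CFAP46, another central pair protein, had its highest scores in Fs. Exon 15 of 57 scored 396, 313 and 166 in Fs and 26.6 in Fts3, with no peak in Fts1 or Fts2. Its number of peaks was 1, 1 and 2 in Fs and 1, 2 and 3 in Fts, and the Fts peaks lay mainly on exons 6, 9 and 10. CFAP69, a central pair protein needed for sperm tails, had 2 peaks in each Fs and 1 in each Fts sample. Those peaks were spread over 4 exons, none of which was covered in all 3 Fs samples.

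SPAG6, SPAG16 and SPAG17 are linked parts of the central pair. SPAG6 had 0 peaks in each Fs and 1 in each Fts sample, on exon 1 of 11 in Fts1 and Fts2 (17.1 and 9.29) and on exon 8 in Fts3 (3.33). SPAG16 had 4, 3 and 3 peaks in Fs and 2, 3 and 2 in Fts. Exon 13 of 16 was covered in all 6 samples (122, 128 and 33.3 against 66.8, 36.4 and 85.2), and a region at chr15:115939563-115939946, off the longest coding transcript, in the 3 Fs samples only (8.09, 5.16 and 10.2). On SPAG17, exon 8 of 54 scored 54.3, 64.7 and 44.3 in Fs and 3.44 in Fts3 alone. SPEF1, which bundles the central pair microtubules, had 1 peak in every sample, at chr17:31935982-31936338, with its midpoint off the longest coding transcript and scores of 26.4, 40.4 and 11.95 against 24.3, 26.1 and 10.2. CFAP65 and SPEF2 had 0 to 2 peaks per sample.

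The other CFAP proteins held 5, 6 and 5 peaks in Fs and 10, 14 and 11 in Fts, the widest gap of the 9 role groups (5.33 ± 0.577 and 11.7 ± 2.08, SD, n = 3; groups apart, exact sign-flip p = 0.25). This gap was not adjusted for the higher mean number of peaks on all genes in Fts. CFAP70, a protein tied to the outer arms, had 1, 2 and 1 peaks in Fs and 3, 6 and 3 in Fts. Exon 7 of 27 scored 273, 243 and 375 in the Fts samples and had no peak in Fs. Its neighbour, exon 6, scored 280 in Fts1 and 785 in Fts2 but had no peak in Fts3. In Fs the highest score of the gene, 98.4, was on exon 15 in Fs3. The exons that meet in the mRNA are printed in their order.
CFAP70 exon 6, chr14:76168608-76168790, - strand: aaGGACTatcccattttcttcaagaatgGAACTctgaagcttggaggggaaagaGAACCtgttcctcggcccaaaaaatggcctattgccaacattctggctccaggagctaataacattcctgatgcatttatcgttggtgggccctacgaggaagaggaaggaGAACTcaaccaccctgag
CFAP70 exon 7, chr14:76160817-76160911, - strand: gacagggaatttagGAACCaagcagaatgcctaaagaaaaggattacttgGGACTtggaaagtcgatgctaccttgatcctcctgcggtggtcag

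CFAP44, which with CFAP43 tethers dynein to the doublet, had 4, 1 and 2 peaks in Fs and 5, 3 and 3 in Fts. Exon 32 of 35 scored 344 in Fts1 and 828 in Fts2. Exon 31 had peaks in the 3 Fts samples (118, 298 and 35.8) and in no Fs sample. On exon 17 the scores were 113, 101 and 61.0 in Fts and 8.95 in Fs1 alone. CFAP61, a protein at the base of the spokes, had a peak on exon 16 of 27 in Fts only (21.1, 36.5 and 8.16). CFAP43, CFAP58 and CFAP206 had 0 to 2 peaks per sample.

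Radial spokes held 3, 3 and 3 peaks in Fs and 4, 4 and 5 in Fts, and the groups did not overlap (exact sign-flip p = 0.25). These few peaks were likewise not adjusted for the number of peaks on all genes. RSPH3, a protein of the spoke stalk that anchors protein kinase A, had no peak in Fs and 1 in each Fts sample, always exon 5 of 8, with scores of 89.8, 136 and 183. The exon is shown since every peak of the gene lay on it.
RSPH3 exon 5, chr1:8261200-8261403, + strand: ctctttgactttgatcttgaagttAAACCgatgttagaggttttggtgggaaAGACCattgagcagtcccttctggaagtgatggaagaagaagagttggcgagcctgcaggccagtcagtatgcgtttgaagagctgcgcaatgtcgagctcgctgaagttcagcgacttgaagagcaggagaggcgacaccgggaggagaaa

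RSPH1, a spoke head protein, had 1, 2 and 1 peaks in Fs and 2, 2 and 3 in Fts, with overlap at 2. ROPN1, which resembles the regulatory subunit of protein kinase A, had a peak at chr13:136395615-136395838, off the longest coding transcript, in all 6 samples (53.5, 44.1 and 24.8 against 16.9, 56.9 and 19.0). RSPH4A had a peak in Fs1 alone.

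Tektins gave almost no peaks, 1, 0 and 1 in Fs and 0, 1 and 2 in Fts over 4 annotated genes. ODF2, the scaffold of the outer dense fibres, had 0 peaks in each Fs sample and 3, 3 and 0 in Fts, so Fts3 lay with the Fs samples. Exon 5 of 21 scored 374 in Fts1 and 381 in Fts2. AK7, an adenylate kinase that balances nucleotides in the axoneme, had a peak on exon 16 of 18 in all 6 samples, with scores of 21.2, 11.9 and 20.4 in Fs and 39.5, 51.9 and 82.7 in Fts. Of the 8 regions found in every sample it was the 1 whose scores did not overlap between the groups. Over all genes, scores were higher in every Fts sample in 13.3% and higher in every Fs sample in 22.7% of such regions, a comparison chosen after the data were seen. QRICH2 had 0 to 2 peaks per sample.
AK7 exon 16, chr7:117661209-117661429, + strand: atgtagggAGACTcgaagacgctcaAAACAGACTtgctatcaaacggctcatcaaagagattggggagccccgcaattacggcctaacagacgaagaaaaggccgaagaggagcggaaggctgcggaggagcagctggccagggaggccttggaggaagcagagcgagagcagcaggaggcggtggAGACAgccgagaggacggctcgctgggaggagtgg

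Peaks of the 6 samples merged into 200 regions on these genes. All 6 samples had a peak in 8 of them, beside 3.22% of the 26095 regions on all genes. The 3 Fts samples and no Fs sample had one in 12 regions of 11 genes, beside 6.79%, and the 3 Fs samples and no Fts sample in 5 regions of 4 genes, beside 3.64%. These shares, 4.0, 6.0 and 2.5% of the 200 regions, lie near the background. A peak in 1 sample alone made up 48.0% of the regions, beside 47.6% over all genes. Samples of 1 group shared 28.6 to 38.8% of the regions covered in either, and samples of different groups shared 12.8 to 20.8%. The same measure over all genes was 33.4 to 37.4% within and 15.8 to 18.4% between groups.

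**Figure D4:**
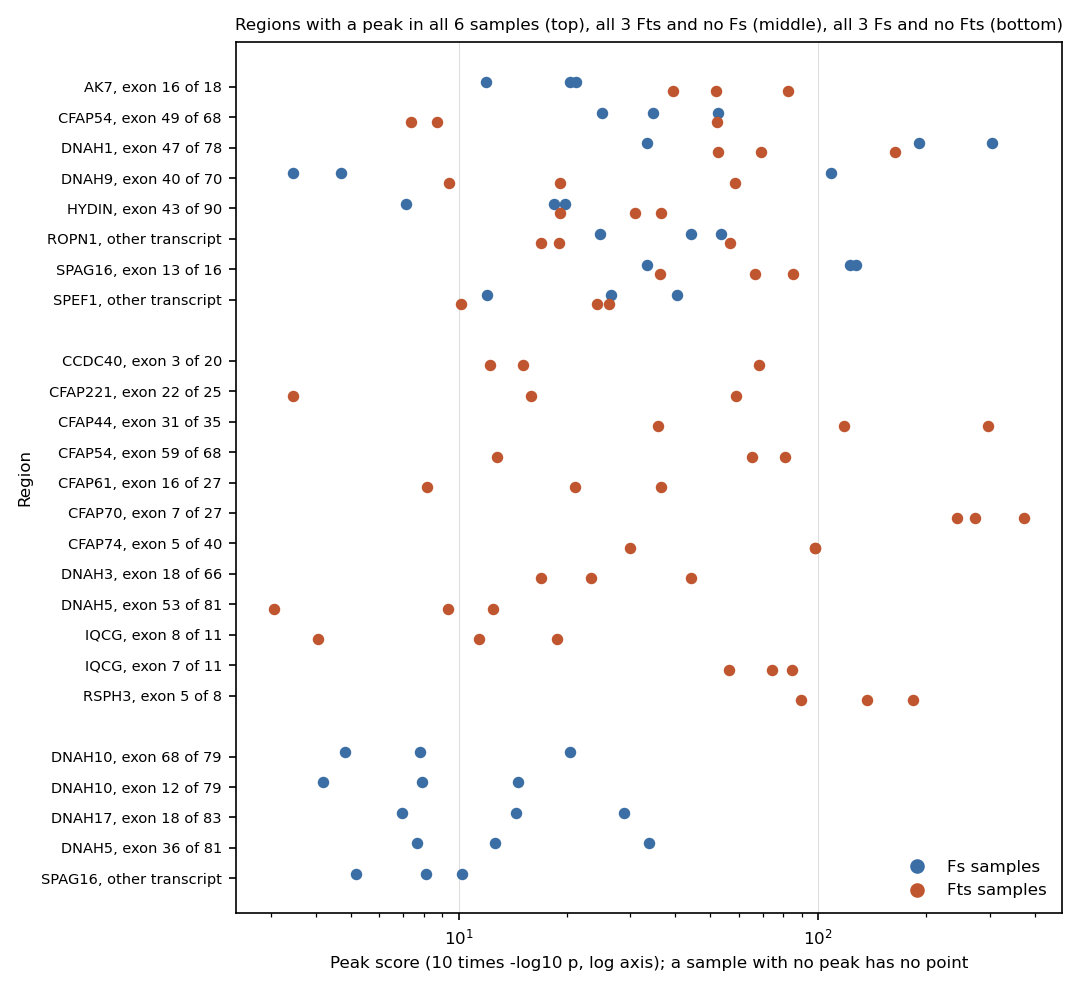
Scores (log axis) are plotted for the 25 regions with a peak in all 6 samples (top block), in the 3 Fts and no Fs sample (middle) or in the 3 Fs and no Fts sample (bottom); blue points are Fs and orange points Fts samples. The top block overlaps in 7 of 8 regions, CFAP70 reaches the highest scores of the middle block, and no score of the bottom block exceeds 33.7.

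Almost all peaks lay in coding sequence. Peaks on the longest coding transcript were classed by their midpoint, and those off it were left out. With start and stop codon classes that reach 100 nt to each side, the coding share was 98.0, 96.7 and 98.3% in Fs and 97.3, 90.5 and 91.7% in Fts. The difference between the groups was -4.51 percentage points (exact sign-flip p = 0.25, groups overlapping). Over all genes the coding share differed in the other direction, with 72.4 ± 0.626% in Fs and 76.6 ± 0.496% in Fts (SD, n = 3), a difference of 4.17 points (3 of 3 pairs, groups apart, exact sign-flip p = 0.25). Whether the difference on these genes departs from that over all genes was not tested. In each sample the share over all genes, 71.8 to 77.0%, was the lower one, and these genes lay 20.9 ± 5.27 points above (SD, n = 6; 6 of 6 samples, exact sign-flip p = 0.031). Coding sequence outside the codon classes makes up 75.0% of the length of these mRNAs. The difference from all genes was not adjusted for the coding part of their mRNAs. No peak in any sample had its midpoint in the 3′UTR, which is 11.1% of their length, whereas 8.80% of Fs and 7.04% of Fts peaks of all genes did. Stop codon classes took 1.22 ± 1.07% of peaks in Fs and 0.926 ± 1.604% in Fts (SD, n = 3), beside 3.82 and 3.90% over all genes.

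Along the coding sequence the peaks were spread. Cut into 3 equal parts, it held 17, 15 and 18 peaks from first to last in Fs1 and 26, 25 and 20 in Fts1, and the other samples held 16 to 30 in each part. Whole exons made up 59.3 to 66.7% of the peaks, in that both ends fell on annotated exon ends, beside 39.1 to 54.2% over all genes. Exons with a peak had a median length of 160.5 to 179 nt in the 6 samples, and exons without one 151 to 152 nt. Per sample, 2.54 to 3.84% of the exons carried a peak.

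The RRACH motif was common but not denser under the peaks. It was present in 79.6, 85.9 and 85.7% of the peaks in Fs and in 86.8, 89.7 and 87.8% in Fts (difference 4.38 percentage points, exact sign-flip p = 0.25, groups apart). Over all genes 81.7 to 82.5% of Fs and 86.7 to 87.7% of Fts peaks held it. Windows of 150 nt tiled over the same mRNAs held it in 90.6%. Matches per 100 nt in peaks minus those in the mRNAs of the same genes came to -0.109 ± 0.117 (SD, n = 6; lower in 5 of 6 samples, exact sign-flip p = 0.09375). Against their coding sequence alone, the density in peaks differed by -0.172 per 100 nt (exact p = 0.031), while peaks of score 50 or more lay 0.0225 per 100 nt above the mRNAs (exact p = 0.84375). GGACT, the form most often linked to m6A, was present in 31 of the 200 regions on these genes (15.5%), in 3 of the 25 regions named above and in 13.3% of the 150 nt windows. Its density in peaks minus that in the mRNAs was 0.0133 ± 0.0215 per 100 nt (SD, n = 6; higher in 5 of 6 samples, exact sign-flip p = 0.21875). Such matches are descriptions and mark no methylated base.

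The deposited list of sites that differ between the groups touched 7 of the 58 genes, beside 7.41% of all genes. It is used for positions only, and no direction was taken from it. The sites on CCDC40 exon 3, CFAP44 exon 17, DNAH9 exon 49 and HYDIN exon 47 overlapped called peaks, in the 3 Fts samples, in Fs1 and the 3 Fts samples, in Fts1 and Fts2, and in Fts1. The sites on DNAH12, DNAH5 exon 24 and SPAG17 exon 32 overlapped no peak of any sample, as did 57.3% of the 1928 sites in the list. DNAH17, CFAP69, CFAP70, CFAP74, IQCG, SPAG6 and RSPH3, whose peak numbers did not overlap between the groups, had no listed site.

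Other genes of flagellum building were described by 4 further lists. Of 24 annotated genes of intraflagellar transport, which carries axoneme parts to the growing tip, 20 had a peak in at least 1 sample. Those with one numbered 8, 12 and 10 in Fs against 19, 14 and 17 in Fts, and IFT46, IFT57 and IFT88 had more peaks in every Fts sample, with 0 in the other direction. Peaks in this list numbered 11, 21 and 19 in Fs and 24, 34 and 32 in Fts, so the groups did not overlap. They were not adjusted for the higher mean number of peaks on all genes in Fts. Of 15 dynein assembly and docking factors with a peak, 3 (CCDC114, DNAAF4 and PIH1D3) had more peaks in every Fts sample and PIH1D1 had more in every Fs sample. In the fibrous sheath and midpiece list, 9 of 15 annotated genes had no peak at all, and SPATA18 and TSGA10, of the 6 with a peak, were higher in every Fts sample. Of 14 microtubule inner proteins with a peak, CFAP53 was higher in every Fts sample. Of all 11705 genes with a peak, 8.98% were higher in every Fts and 5.36% in every Fs sample.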

How the data were processed

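RNA of fresh and frozen-thawed boar sperm was fragmented, pulled down with an m6A antibody and sequenced beside its input by the authors (12 libraries). Per the submitters' processing notes, cutadapt 1.9.3 and HISAT2 were used on Sscrofa11.1, and per the study's methods peaks were called with MACS in each sample and sites that differ with diffReps. The authors deposited 1 peak list per IP sample, whose score is 10 times -log10 p, and 1 list of sites. The score in the site list derives from the authors' own comparison and was not used. Read counts are not in these lists, so no depth, interval or floor could be given per peak.

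Peaks were assigned to every gene of RefSeq Sscrofa11.1 with which they shared at least 1 bp of mRNA exon on the same strand. Peaks of the 6 samples were merged into regions. Samples were grouped by their labels. Fs and Fts values were compared over the 3 pairs of equal number with an exact sign-flip test (two-sided), since the study's methods state a paired design, and with an exact permutation test of 3 against 3. Whether equal numbers mark the same boar is not given in the labels. Genes and regions were called when the samples of both groups did not overlap, with no p, and set beside the same share over all genes. Members were set against all genes with an exact sign-flip test over 6 samples and Benjamini-Hochberg adjustment. The 6 samples came from 3 boars, so this test overstates the number of independent units.

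Genes named with values were those whose groups did not overlap in peak number, the 5 with most peaks, the 5 with the highest scores, and those with a region found in all samples or in all of 1 group and none of the other, or with a listed site. DNAH7, DNAI2, GAS8, ODF2, RSPH1, RSPH4A, DNAL1 and CCDC103 were chosen after their values were seen, as were the exons described beyond this rule. The members and all lists were chosen with earlier results of these data known. The assignment was tested on simulated data and against bedtools 2.31.1. Python 3.11.15, numpy 2.4.6 and matplotlib 3.10.9 were used. Alternatives covered score minimums of 20 and 50, the rule of assignment, joined peaks, equal peak numbers, codon classes, motifs, the pairing and each pair left out.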

Additional observations from a re-analysis of the deposited data

How the results depend on the processing

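Of 158 alternative values, 120 kept their direction and side of the threshold or stayed within the set range, and 1 alternative, sites in the upper part of the site scores, was not run because that score is the authors' own p. The difference between Fts and Fs in mean peaks per gene turned to -0.141 with peaks joined across junctions and to -0.0210 with equal peak numbers, and ranged from -0.0609 to 0.169 when 1 pair was left out. That in the share of peaks ranged from -0.00140 to 0.0653, the lowest without pair 1. The median score among peaks of 50 or more differed by -23.4. Motif density in peaks minus mRNAs was 0.0133 for GGACT and 0.0225 for scores of at least 50, and -0.220 for DRACH, which also takes T at the first base, and -0.172 against coding sequence, both with an exact sign-flip p of 0.031. In these cases the cause was not tested. Genes higher in every Fts sample numbered 0 among mRNAs of 10000 nt or more, 12 by highest score (chosen after the data were seen) and 10 to 11 with 1 pair left out, when fewer samples must lie apart. Genes higher in every Fs sample numbered 1 at scores of at least 20, 1 among long mRNAs and 3 to 6 with 1 pair left out. These checks compare counts, and the genes can change. At scores of at least 50 the 2 genes higher in Fs were CFAP46 and DNAH5, and at 20 the 1 was SPAG17, so DNAH17 and CFAP69 were not among them. Of the 6 genes higher in Fts, 4 stayed at scores of at least 20, 2 at 50 and 5 with joined peaks, without CFAP70. The midpoint and longest transcript rules kept all of both sets. Regions in all 6 samples numbered 2 at scores of at least 20 and 0 at 50. Those in Fts alone numbered 5 at 50 and 19 to 27 with 1 pair left out, and those in Fs alone 1 at 20, 3 at 50 and 7 to 15. With 1 pair left out, the members exceeded all genes by 27.4 to 31.0 points in genes with a peak, 4.06 to 5.04 peaks per 100 kb and 19.8 to 22.002 points of coding share, with an exact p of 0.125, the smallest that 4 samples allow. As a replicate block, more peaks in each of the 3 pairs held for 10 genes in Fts and 5 in Fs. Deviations of samples of equal number from their group means correlated by 0.0103, -0.0143 and 0.0129 over 11705 genes, so the pairing rests on the numbers and the methods. No comparison of Fs with Fts could reach a p under 0.25 in the paired test or 0.1 in the unpaired test. Neither the unpaired test nor any alternative could therefore move such a comparison across the threshold. Depth per peak is unknown.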
